A study of Mus musculus with 7 samples.

Results

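The miRNAs described here are ones best known from other organs or from the early embryo, measured in the edge of skin wounds of C57Bl6 mice. They were chosen by their number in the miRNA nomenclature and comprised 35 of the 306 mouse or human miRNA assays on a real-time PCR plate, of which 13 were grouped as brain and retina, 4 as liver and gut, 3 as pancreas, 1 as melanocyte and 14 as embryonic. Assays of the let-7 family were not taken, since let-7 is a family apart from miR-7. Of the 35 assays, 11 carried the human and 24 the mouse prefix. Ischemic wound edge was represented by 3 samples, from wounds placed in a bipedicle flap, in which skin is cut free along both sides so that its centre is poorly supplied with blood. These were compared with 4 samples of non-ischemic wound edge of the same strain, and all 7 samples were taken 3 days after wounding. The labels do not say whether the samples came from separate animals or pools, so each p-value reflects sample-to-sample spread, part of which may be technical.

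A miRNA is made as a hairpin that is cut to a mature strand, whose seed, bases 2 to 8, pairs with target messenger RNAs. Some miRNAs are made mainly in 1 or a few tissues and are used as markers of them. Examples are miR-122 in hepatocytes, miR-375 in the endocrine cells of the pancreas, and the miR-290 and miR-302 clusters in pluripotent cells of the early embryo. Members of a cluster are cut from 1 shared primary transcript. A wound edge holds epidermis, dermis, vessels, nerve endings, muscle of the skin and invading leukocytes, so most of these miRNAs are not typical of it.

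The mature sequences shown are those of the sensory cluster, which held the most readily detected member, and of miR-194. Also shown are some of the near-identical or related strands whose assays differed in the samples with product or of which 1 gave none. Others of this kind, such as miR-291-5p and miR-291b-5p, are left out. Sequences are given 5′ to 3′ from RefSeq (mouse, GRCm38.p6) with the seed in capitals. Of the 35 assays, 31 matched an entry, while miR-122a, miR-375, miR-292-3p and miR-302a are named only. For assays with the human prefix the mouse entry is shown. The arm was taken from the present name of each miRNA, since the plate's own primer sequences were not used here.
miR-182: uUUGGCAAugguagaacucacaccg
miR-183: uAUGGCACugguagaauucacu
miR-96: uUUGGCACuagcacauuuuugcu
miR-7: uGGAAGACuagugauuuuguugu
miR-7b: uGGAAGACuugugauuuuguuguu
miR-194: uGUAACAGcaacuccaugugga
miR-192: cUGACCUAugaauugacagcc
miR-215: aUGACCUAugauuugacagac
miR-204: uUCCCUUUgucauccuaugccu
miR-211: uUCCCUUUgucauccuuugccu
miR-294: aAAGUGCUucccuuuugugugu
miR-295: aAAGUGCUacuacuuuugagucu
miR-302c: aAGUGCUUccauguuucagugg
The miR-182, miR-96 and miR-183 hairpins lie within 3820 bases of each other on the minus strand, at chr6:30165918-30169737, inside the bounds of the long noncoding RNA gene Mirc35hg. Counting from 1 at the 5′ end, miR-7 and miR-7b differ by A10U within the length of miR-7, miR-204 and miR-211 by A17U, and miR-192 and miR-215 by C1A, A12U and C20A, so that each pair keeps its seed.

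Product was scarce among these miRNAs. The threshold cycle (Ct) is the PCR cycle at which product becomes visible, so a lower Ct means more RNA, and 40 stands for no product. Of the 35 assays, 20 (57.1%) gave no product in any sample, against 83 of the 271 other miRNA assays (30.6%). A Ct below 35, taken here as detection, was reached in at least 1 sample by 2 of the 35 assays (5.71%), against 116 of the other 271 (42.8%). These 2 were miR-182 and miR-7, and without non-ischemic sample 3 the count was 1, miR-182. The median Ct of the wells with product was 37.2 among these assays and 33.8 among the others. These are counts of chosen assays, given as a description without a test.

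**Figure D1:**
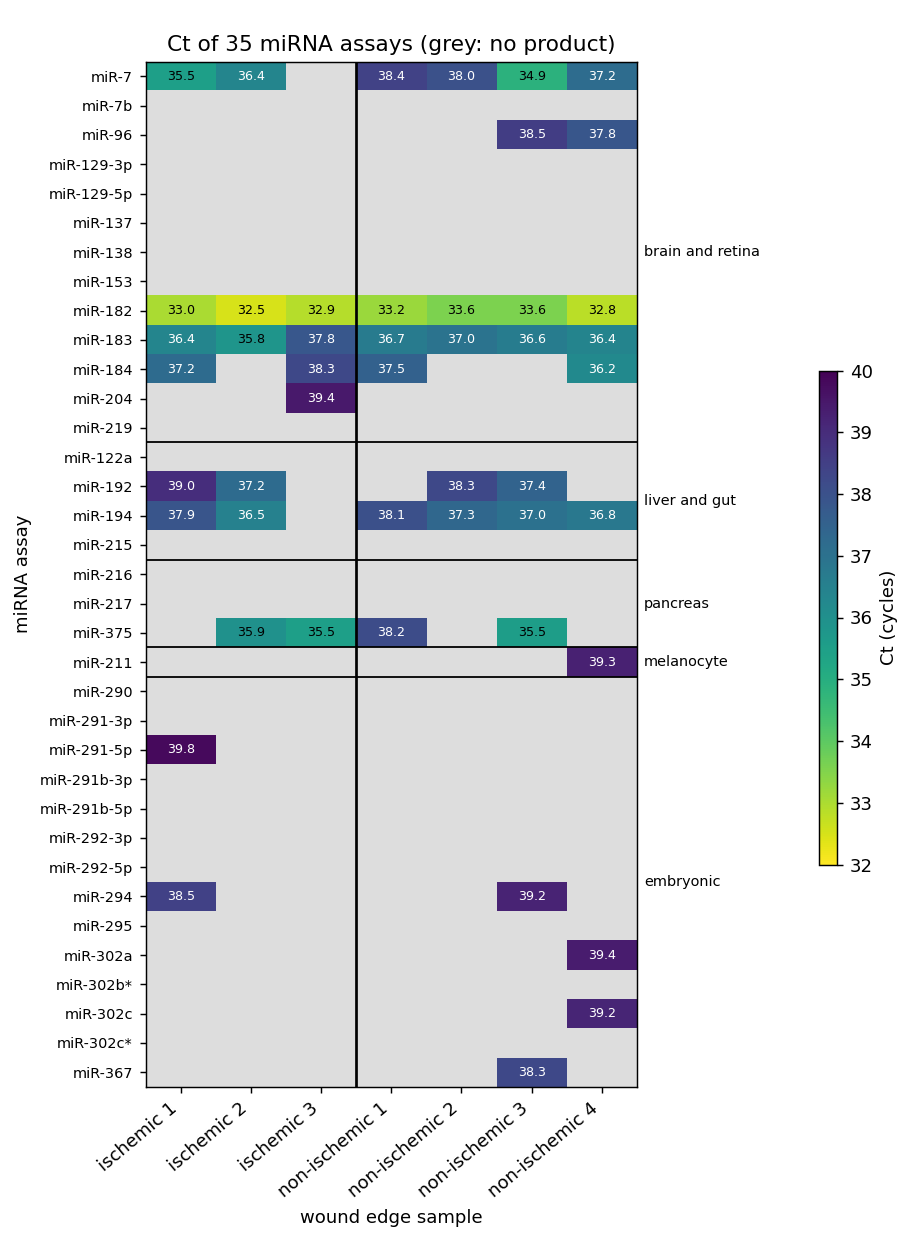
Ct in cycles of the 35 assays (rows, by organ group) in the 3 ischemic and 4 non-ischemic samples (columns), with grey for no product. Product in all 7 samples is seen for miR-182 and miR-183, and 20 rows are grey throughout.

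Product was spread over both groups. The number of these 35 assays with product was 8, 6 and 5 in ischemic samples 1 to 3, against 6, 5, 9 and 9 in non-ischemic samples 1 to 4, so the groups overlapped. Product in a single sample was seen for 6 of the 35 assays (17.1%), against 18 of the other 271 (6.64%). Over all 306 assays the number with product was 159, 158 and 151 in ischemic samples 1 to 3, against 162, 156, 152 and 167 in non-ischemic samples 1 to 4.

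**Figure D2:**
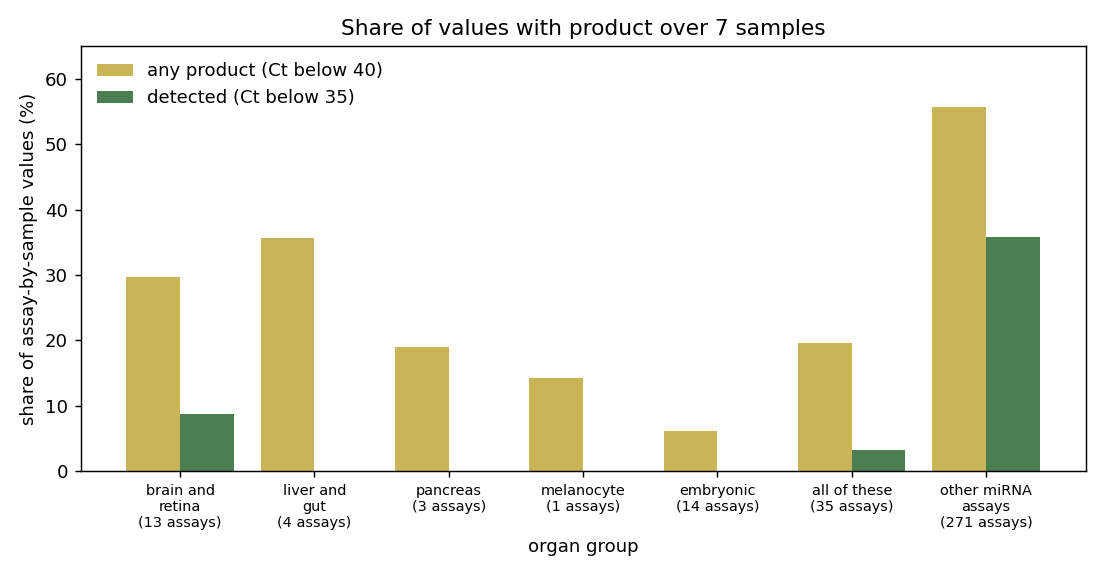
Share in percent of assay-by-sample values with any product (Ct below 40) and with a Ct below 35, by organ group, beside the other 271 miRNA assays; bars start at 0. Among the groups, a Ct below 35 occurs in brain and retina (8.79% of values), while it is 35.7% in the other assays.

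Checks of tissue and samples were as follows. Of 4 epidermal miRNAs (miR-203, miR-205, miR-200b and miR-200c), 3 had a Ct below 35 in all 7 samples, and miR-205 in 6, with 35.5 in non-ischemic sample 3. The mean log2 level of these 4 relative to 5S rRNA was -18.4, -18.6 and -17.9 in ischemic samples 1 to 3. In non-ischemic samples 1 to 4 it was -17.2, -17.2, -18.1 and -16.8. This mean was lower in the ischemic samples, except that sample 3 lay above non-ischemic sample 3. The members were uneven. Their difference, ischemic minus non-ischemic, was -1.41 for miR-203, -1.98 for miR-200b, -0.35 for miR-200c and -0.05 for miR-205. Ischemic sample 3 stood apart: over the 76 miRNAs detected in all samples its correlation with the other samples was 0.756 to 0.830, against 0.908 to 0.977 among the other 6, where miRNAs are not independent replicates. The mean log2 level of 4 leukocyte miRNAs (miR-223, miR-142-3p, miR-142-5p and miR-150) relative to 5S rRNA was -14.6, -14.4 and -17.8 in ischemic samples 1 to 3, against -15.2 to -14.1 in the non-ischemic samples. In ischemic sample 3, miR-150 did not share the low level, at -16.04, against -16.34 to -15.90 in the non-ischemic samples. The 4 muscle miRNAs (miR-1, miR-133a, miR-133b and miR-206) had mean levels of -14.3 to -12.6 in ischemic samples, highest in sample 3. In non-ischemic samples the mean levels were -14.7 to -14.3. miR-206 differed less, by 0.34 (ischemic minus non-ischemic), against 1.46, 1.34 and 1.23 for miR-1, miR-133a and miR-133b. The level of miR-206 was highest in ischemic sample 2 (-14.49) and lowest in ischemic sample 1 (-16.12). The Ct of 5S rRNA was 14.6, 14.5 and 14.6 in ischemic samples 1 to 3, against 14.7, 14.5, 14.6 and 14.8 in non-ischemic samples 1 to 4. In such bulk tissue, fewer cells of a type and less RNA per cell cannot be told apart.

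The one clearly measured member was miR-182, the cluster miRNA best known from photoreceptors of the retina and hair cells of the inner ear, and also induced in activated helper T lymphocytes. Its Ct was 33.02, 32.5 and 32.9 in ischemic samples 1 to 3, against 33.2, 33.6, 33.6 and 32.8 in non-ischemic samples 1 to 4. The groups overlapped through non-ischemic sample 4, which lay among the ischemic samples. By mean Ct over all samples, miR-182 took rank 65 of the 306 assays, and it was the single one of the 35 to enter the test between groups, which needed a Ct below 35 in at least 3 samples.

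The level of miR-182 relative to 5S rRNA, on the log2 scale, was -18.45, -18.02 and -18.32 in ischemic samples 1 to 3, against -18.53, -19.10, -18.96 and -18.00 in non-ischemic samples 1 to 4. On this scale non-ischemic sample 4 was the highest of all 7. The level averaged -18.3 ± 0.22 in ischemic and -18.6 ± 0.50 in non-ischemic samples (SD, n = 3 and 4). The difference was 0.38 ± 0.39 (SE, log2), or 1.30-fold, with a 95% interval of -0.51 to 1.27 and an adjusted p of 0.734 in limma over the 103 miRNAs tested. Relative to 5S rRNA, the difference did not exceed the spread between samples, though the interval leaves room for a level up to 2.41-fold higher. In this comparison limma called 0% of the 103 miRNAs at an adjusted p of 0.05 and 18.4% at an unadjusted p of 0.05. The median difference of the 103 was -0.35, so that miR-182 lay 0.74 above it. Scaling to the global mean, the global median or by quantiles gave differences of 0.72 ± 0.28, 0.74 ± 0.30 and 0.80 ± 0.30 (SE). In limma their unadjusted p was 0.033, 0.036 and 0.026, and their adjusted p was 0.273, 0.310 and 0.243. By these 3 scalings, 15, 14 and 17 of the 103 miRNAs had an unadjusted p under 0.05. Without ischemic sample 3, the sample low in miR-223 and both arms of miR-142, the difference relative to 5S rRNA was 0.41 ± 0.42 (SE).

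**Figure D3:**
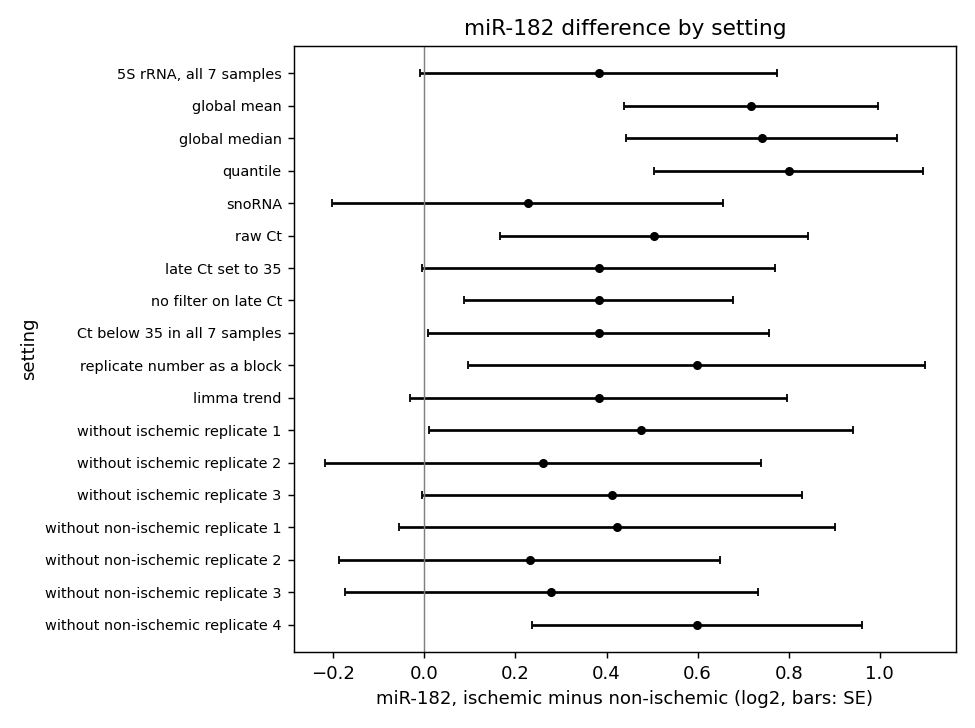
Difference of miR-182, ischemic minus non-ischemic, in log2 units (x axis) with its SE (bars) in limma under each setting (y axis). All values lie above 0, from 0.23 to 0.80, and none passed an adjusted p of 0.05.

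The cluster partners of miR-182 were measured far later. miR-183, which shares the primary transcript and is known from the same sensory cells, had a Ct of 36.4, 35.8 and 37.8 in ischemic samples 1 to 3, against 36.7, 36.97, 36.6 and 36.4 in non-ischemic samples 1 to 4. It gave product in all 7 samples without a Ct below 35, and its highest and lowest Ct both stood in the ischemic group. miR-96, in which seed mutations cause hearing loss in mouse and human, gave product in non-ischemic samples 3 and 4 at a Ct of 38.5 and 37.8 and in none of the 3 ischemic samples.

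The order within the cluster was the same in every sample. The Ct of miR-183 lay above that of miR-182 by 3.33, 3.36 and 4.94 cycles in ischemic samples 1 to 3, against 3.47, 3.40, 3.05 and 3.57 cycles in non-ischemic samples 1 to 4. The gap was widest in ischemic sample 3. Since assays differ in efficiency, a gap in Ct between 2 assays is not a ratio of their RNA. The level of miR-183 differed by -0.12 (log2, ischemic minus non-ischemic) with an exact permutation p of 0.857, adjusted to 0.933 over all 306 assays (n = 3 and 4). Without ischemic sample 3 the difference was 0.44.

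**Figure D4:**
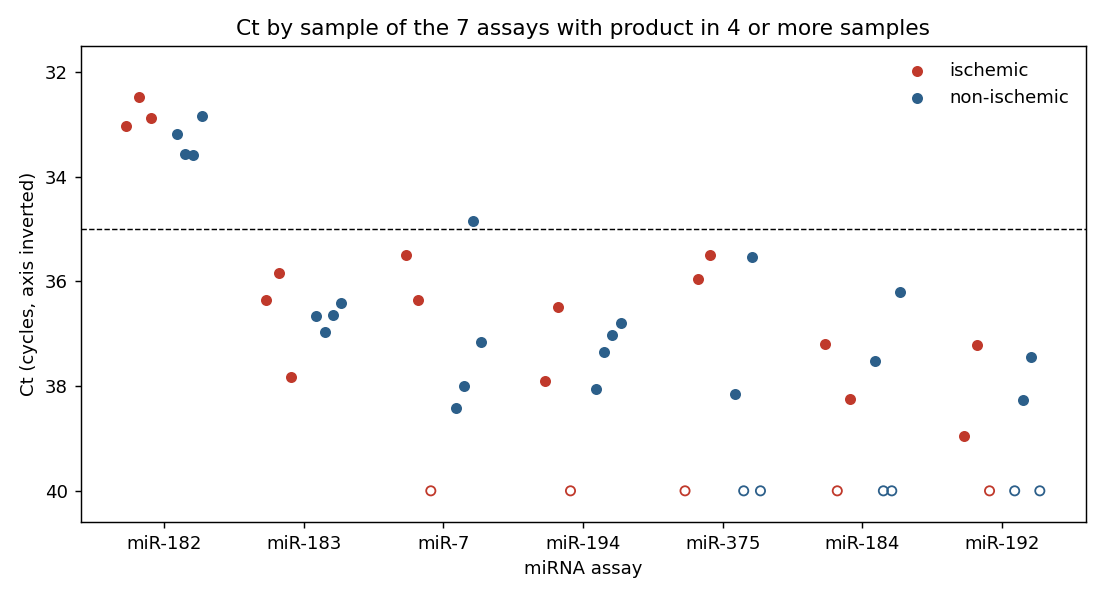
Ct in cycles (y axis, inverted so that more product is higher) of the 7 assays with product in at least 4 samples, with 1 point per sample for ischemic and non-ischemic wound edge; open circles stand for no product and the dashed line marks a Ct of 35. All points of miR-182 lie above the line, 1 point of miR-7 does, and the groups overlap in each assay.

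miR-7, known from neurons, the pituitary and pancreatic endocrine cells and bound by the circular RNA Cdr1as, gave late product in 6 of 7 samples. The values were a Ct of 35.5, 36.4 and 40 in ischemic samples 1 to 3, against 38.4, 38.00, 34.9 and 37.2 in non-ischemic samples 1 to 4. The sample without product was ischemic sample 3, and the single Ct below 35 was that of non-ischemic sample 3. The difference in level was -0.30 (log2, exact permutation p of 0.829, adjusted p of 0.919 over 306 assays, n = 3 and 4), and it was 1.05 without ischemic sample 3. In this and the following differences a Ct of 40 was kept as a value, so blanks help to set their size. The near twin of miR-7, miR-7b, which shares the seed GGAAGAC, gave no product in any sample.

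The remaining assays of the brain and retina group were mostly blank. miR-129 (both arms), miR-137, miR-138 and miR-153, all known from neurons, and miR-219, known from maturing oligodendrocytes, gave no product in any sample. Among neural miRNAs outside the chosen numbers, miR-124a had a Ct of 32.6, 31.3 and 31.0 in ischemic samples 1 to 3, against 29.7, 30.1, 30.2 and 30.6 in non-ischemic samples 1 to 4, while miR-9 gave no product in any sample. miR-128a and miR-128b reached no Ct below 35, so 1 of the 4 neural assays on the marker list was detected. The part of nerve tissue in the values of the brain and retina group was not tested.

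miR-184, miR-204 and miR-211 gave scattered product. miR-184, known from the epithelium of cornea and lens, had a Ct of 37.2, 40 and 38.3 in ischemic samples 1 to 3, against 37.5, 40, 40 and 36.2 in non-ischemic samples 1 to 4. It gave product in 2 samples of each group, with a difference of -0.18 (log2, exact permutation p of 0.943, adjusted p of 0.971, n = 3 and 4). miR-204, known from the retinal pigment epithelium and encoded within Trpm3, gave product in ischemic sample 3 alone at a Ct of 39.4. miR-211, the melanocyte miRNA encoded within Trpm1, which shares the seed UCCCUUU with miR-204, gave product in non-ischemic sample 4 alone at a Ct of 39.3.

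In the liver and gut group, the hepatocyte miRNA miR-122a gave no product in any sample. miR-194, a miRNA of intestinal epithelium, liver and kidney, had a Ct of 37.9, 36.5 and 40 in ischemic samples 1 to 3, against 38.1, 37.3, 37.02 and 36.8 in non-ischemic samples 1 to 4. It had product in every sample but ischemic sample 3, as miR-7 did. Its difference was -0.95 (log2, exact permutation p of 0.371, adjusted p of 0.583 over 306 assays, n = 3 and 4), and -0.03 without ischemic sample 3. The mature strand is the same from 2 loci, chr1:185313325-185313346 inside the bounds of Iars2 and chr19:6264658-6264679, so the assay cannot tell them apart.

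miR-192, encoded beside the second of these loci at chr19:6264857-6264877, had a Ct of 39.0, 37.2 and 40 in ischemic samples 1 to 3, against 40, 38.3, 37.4 and 40 in non-ischemic samples 1 to 4. In each of the 4 samples with both products, miR-192 came after miR-194, by 0.42 to 1.05 cycles. The difference of miR-192 was 0.08 (log2, exact permutation p of 0.971, adjusted p of 0.981, n = 3 and 4). miR-215, which is encoded beside the chromosome 1 copy of miR-194 and shares the seed UGACCUA with miR-192, gave no product in any sample.

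Of the pancreas group, miR-375, which acts on insulin secretion in islet cells, gave product in 4 of 7 samples. The values were a Ct of 40, 35.9 and 35.5 in ischemic samples 1 to 3, against 38.2, 40, 35.5 and 40 in non-ischemic samples 1 to 4. Product and blanks stood side by side within each group, with an SD of 2.48 cycles in ischemic and 2.11 cycles in non-ischemic samples. The difference of 1.15 (log2) had an exact permutation p of 0.571, adjusted to 0.774 over 306 assays (n = 3 and 4), and it was 2.56 without ischemic sample 1, and 0.31 when ischemic sample 3 was left out instead. miR-216 and miR-217, miRNAs of the exocrine pancreas, gave no product in any sample.

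The embryonic group was nearly empty. Of its 14 assays 9 gave no product, and the other 5 gave 6 values with product among 98, at a Ct of 38.3 to 39.8. From the miR-290 cluster of early mouse embryos, at chr7:3218626-3220841, miR-294 gave product in ischemic sample 1 at 38.5 and in non-ischemic sample 3 at 39.2, and miR-291-5p in ischemic sample 1 at 39.8. The miR-302 cluster of pluripotent cells lies at chr3:127545228-127545807, within the bounds of Larp7. Places inside genes were taken from coordinates alone, without comparing strands. From this cluster, miR-302a and miR-302c gave product in non-ischemic sample 4 at 39.4 and 39.2, and miR-367 in non-ischemic sample 3 at 38.3. No sample gave product for both miR-302c and miR-367, which share a primary transcript. The letters AAGUGC, by which these clusters are best known, began at base 2 in miR-291-3p, miR-291b-3p, miR-294 and miR-295 and at base 1 in miR-302c as RefSeq lists it. Of these 5, miR-294 and miR-302c had a value with product. The letters were not looked for in miR-292-3p and miR-302a, which matched no RefSeq entry.

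Among the 15 assays with product in at least 1 sample, none had ischemic and non-ischemic levels without overlap, where 11.8% of all 203 miRNA assays with product did, and 17.5% of the 103 tested with limma. In the exact permutation test none of the 15 had an unadjusted p under 0.05, where 6.9% of the 203 did. Apart from miR-182, miR-183, miR-7 and miR-194, each of the 15 had blanks in both groups, held at a Ct of 40. Such assays could hardly separate the groups, so the absence of separation says little about them. The 20 blank assays add nothing to these counts, since their levels differ between samples through 5S rRNA alone. The smallest p that 3 against 4 samples allow is 0.0286. Of the 306 assays, 0% had an adjusted p under 0.05 in that test. The adjustment over 306 assays took in 103 with no product in any sample, a separate set from the 103 tested with limma. The levels of these blank assays differ between samples through 5S rRNA alone. With that smallest p, an adjusted p under 0.05 needed a large share of the assays to stand at it. The 0% therefore carries little information.

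For the 20 assays blank in every sample, a ratio between groups carries no information on the miRNA. In the authors' deposited table each of these 20 had a fold of 0.916 (ischemic over non-ischemic), since a Ct of 40 was kept as a value and only the 5S rRNA differed, by -0.12 cycles in mean Ct. By the same table the fold was 0.382 for miR-96 and 0.582 for miR-367, each blank in all ischemic samples and in 2 or 3 of the non-ischemic ones. For miR-182 the authors' deposited table gave 1.26, with mean ratios to 5S rRNA of 3.20e-06 in ischemic and 2.55e-06 in non-ischemic samples.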

How the data were processed

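Mature miRNAs were measured in total RNA of wound edge tissue by real-time PCR. Per the labels, 500 ng of RNA was reverse transcribed with pooled looped primers and run in plates of 384 wells. How the Ct threshold was set is not stated in these sources. The raw Ct is a score of cycles, as deposited by the authors. The deposited log2 values (delta Ct) equalled the Ct of 5S rRNA minus that of the assay in 315 of 316 rows, within 0.0001, and 18S had the opposite sign. Group mean ratios and folds are from the authors' deposited table. A further 7 columns of the raw table repeat the 5S rRNA Ct and were not used.

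Groups were taken from sample titles. Ischemic minus non-ischemic log2 levels were tested with limma 3.58.1 in R 4.3.3 over the 103 miRNAs detected (Ct below 35) in 3 or more samples, two-sided with Benjamini-Hochberg adjustment. Every one of the 306 assays also had a two-sided exact permutation test over all 35 splits. The members, lists and the rule for named miRNAs were chosen with earlier results of these data known: each member with product is given in every sample or at its values, the others by their group. PCR values carry no molecule count, so precision is the spread between samples. The alternatives were other normalizations and filters, late Ct set to 35, a variance trend, the replicate number as a block, other detection limits and each sample left out.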

Additional observations from a re-analysis of the deposited data

Results flagged for a closer look

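In 5 assays 1 non-ischemic sample lay far from the other 3, which were all at 40, so that any product at all sets it apart. These were miR-211 (Ct 39.26), miR-302a (39.39) and miR-302c (39.19) in non-ischemic sample 4, and miR-294 (39.21) and miR-367 (38.26) in non-ischemic sample 3. The rule was applied to the non-ischemic group alone. Product in a single ischemic sample also occurred, for miR-204 in ischemic sample 3 (39.44) and for miR-291-5p (39.79) and miR-294 (38.46) in ischemic sample 1. Of the 35 assays, 13 had any spread within the non-ischemic group, and chance flags about 1 in 20 groups under a rule meant for values that are not held at a limit.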

How the results depend on the processing

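The number of these assays called detected followed the limit: 2 at a Ct below 35, 1 at 33, 6 at 37 and 15 at any product, and 1 when at least 2, at least 3 or all 7 samples were required. Over samples left out in turn the detected count ran from 1 to 2 and the count with any product, chosen after seeing the data, from 12 to 15. miR-182 kept a positive difference without passing an adjusted p of 0.05 in all 17 alternatives (0.23 to 0.80, adjusted p of 0.243 to 0.860 in limma), and over samples left out it ran from 0.23 to 0.60. The count of 0 among 103 tested miRNAs, with 19 at an unadjusted p under 0.05, became 1 by global median and 1 by quantile normalization and ran from 0 to 8 over samples left out, with 8 without ischemic sample 3, and the cause was not tested. With the replicate number as a block, miR-182 was at 0.60 (adjusted p of 0.842) and 0 miRNAs passed, with 7 at an unadjusted p under 0.05. Same-numbered samples did not deviate together (correlations of -0.08, -0.30 and -0.11). These correlations cannot settle whether such samples were paired, since the labels do not name the animals.

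Differences of late assays turned sign. By global mean and global median, miR-7 was at 0.037 and 0.060, miR-183 at 0.21 and 0.24 and miR-184 at 0.16 and 0.18, and against snoRNA miR-192 was at -0.073. Over samples left out, miR-7 ran from -1.22 to 1.05, miR-183 from -0.50 to 0.44, miR-184 from -0.84 to 0.63 and miR-192 from -0.64 to 0.71. miR-194 (-1.74 to -0.03) and miR-375 (0.31 to 2.56) kept their sign. With late Ct set to 35, miR-7 was at -0.16, and for the other 5 of these assays, beyond 35 in all samples, no value was computed. With no filter on late Ct, limma over 306 assays gave these 6 adjusted p of 0.539 to 0.958. Quantile normalization, the filter on all 7 samples, the trend and the block were not run on them. Any Ct past 35 is the least precise.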
